A study of Mus musculus with 13 samples.

Results

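Ribosome biogenesis genes encode the proteins that transcribe ribosomal RNA and build it into ribosomes. The set described here has 36 members, taken by gene symbol from the 23366 genes of the deposited table, and all 36 were found. By role, 4 act in RNA polymerase I transcription, 3 are abundant nucleolar proteins, 4 belong to box C/D and 4 to box H/ACA small nucleolar ribonucleoproteins, 9 to the small-subunit processome, 4 to late small-subunit maturation, 3 to the PeBoW complex and 5 to other steps of large-subunit assembly.

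In the nucleolus, RNA polymerase I copies ribosomal DNA into a long precursor, which is cut, chemically modified and folded onto ribosomal proteins to give a small and a large subunit. Small nucleolar RNAs guide the modifications, box C/D particles for ribose methylation and box H/ACA particles for pseudouridine. Ribosome production is known to be high in growing and dividing cells, and myoblasts, the dividing precursors of muscle fibres, leave the cell cycle before they fuse into myotubes.

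RNA was sequenced from primary mouse muscle cells of mixed strain in 4 groups, which hold 2 libraries of dICR/dICR myotubes and 5 of wild-type myotubes, then 2 of dICR/dICR myoblasts and 4 of wild-type myoblasts. The dICR allele is a deletion of the imprinting control region between Igf2 and H19, here on both chromosomes. Myoblasts came from hind limb muscle of pups aged 2 to 3 days and grew with 10% calf serum and fibroblast growth factor. Myotubes were such cells after 24 hours in medium holding 1% horse serum, so genotype is set against wild type in each cell type, and myotubes against myoblasts in each genotype. The labels do not say whether libraries of a group came from separate pups or cultures, so p-values measure only the spread between these libraries, which may be technical. The cells are primary cultures from dissected muscle, and the litters and sexes behind each library are not given in the labels.

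The libraries stand in 2 sets by depth, which are not groups of the study. The 6 shallow libraries hold 5.31 to 10.91 M counts (M, mega) and the 7 deep ones 35.56 to 56.44 M, divided at 20 M, and the smallest count of any member in any library was 25, for Fbl. Both dICR/dICR myotube libraries are deep and both dICR/dICR myoblast libraries are shallow, whereas wild-type myotubes 1 to 3 and wild-type myoblasts 1 and 2 are deep and wild-type myotubes 4 and 5 and wild-type myoblasts 3 and 4 are shallow. The labels name an Illumina and a SOLiD instrument without tying either to a library. H19 stood at 52.4 to 71.5 CPM in the 4 dICR/dICR libraries and at 2345 CPM or more in the 9 wild-type ones, as the genotype labels state; CPM is the count scaled to a library of 1 M after trimmed mean of M-values (TMM) normalization. Each of 10 myoblast identity genes reached 1 CPM in at least 1 library. Of the markers of other cells, 5 of 12 fibroblast, 5 of 8 endothelial, 4 of 9 macrophage and leukocyte and 1 of 10 smooth muscle and pericyte genes stayed below 1 CPM in all 13, and the summed levels ran from 157 to 992 CPM for fibroblast and from 145 to 4777 CPM for smooth muscle and pericyte markers. The series' design text speaks of 2 to 3 replicates per group, so whether all 4 and 5 wild-type libraries are separate biological samples is not known.

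**Figure D1:**
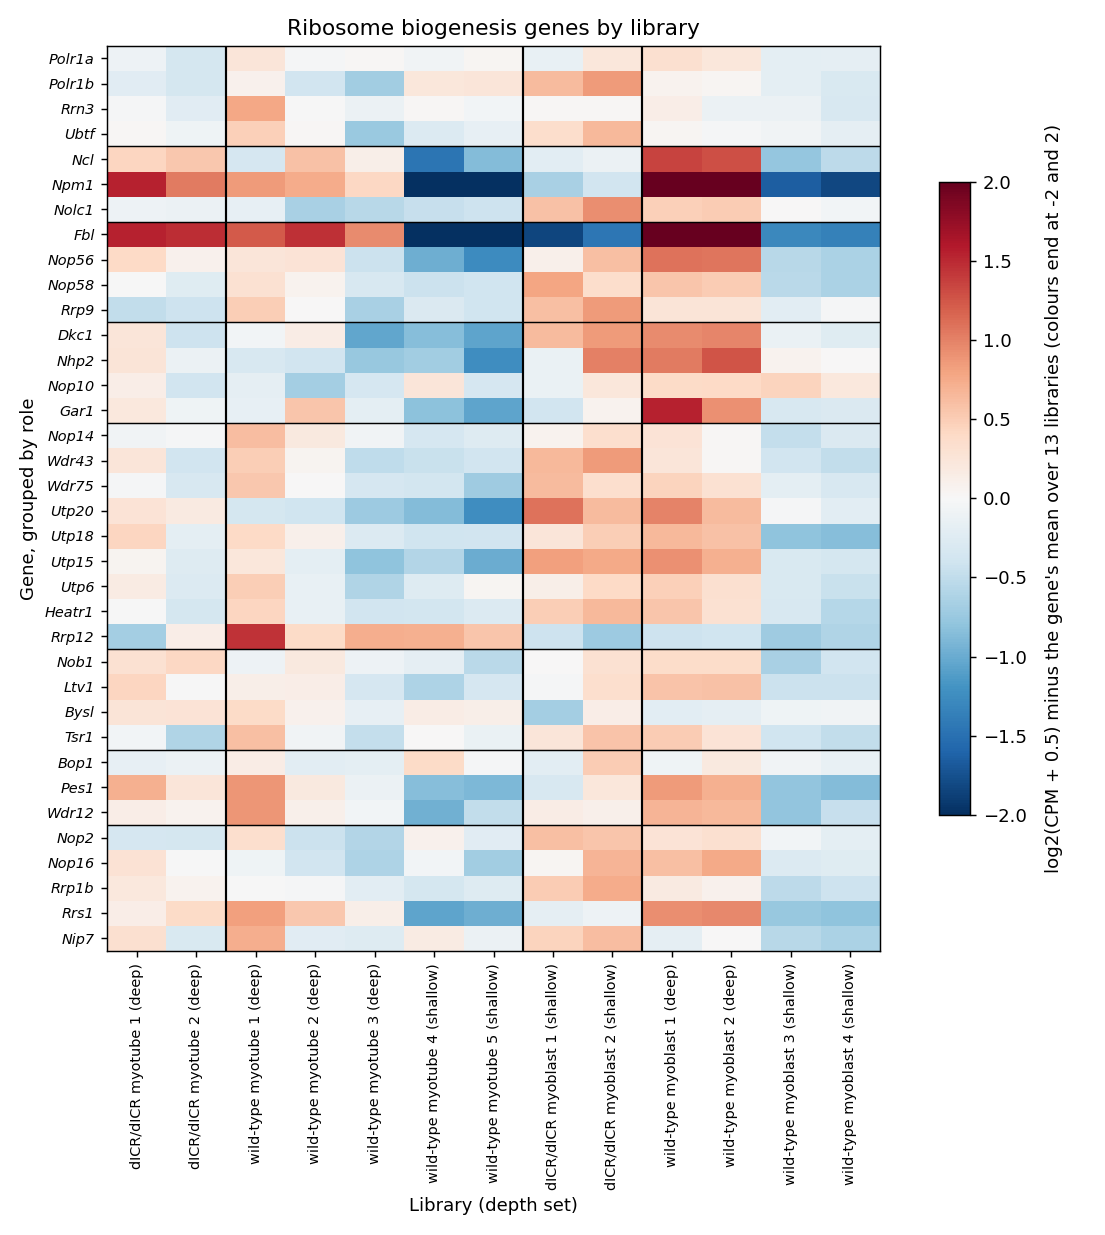
Level of each of the 36 ribosome biogenesis genes (rows, grouped by role) in each of the 13 libraries (columns, depth set in brackets), as log2(CPM + 0.5) minus the mean of that gene over the libraries. Npm1 and Fbl are blue in the shallow libraries and red in the deep ones, and Rrp12 is red in the 5 wild-type myotube libraries.

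Since MYC, a transcription factor that drives cell growth, is known to bind the letters CACGTG with its partner MAX, the promoters of the members were searched for them. RefSeq promoters (GRCm38.p6, 250 bases before to 50 after the start) were at hand for 30 of the 36 members, and 8 of these 30 (26.7%) held CACGTG, a motif that reads the same on both strands, against 8.09% of 27025 genes and 7.15% of 32851 promoters of the same length. The neighbouring motif CACATG, searched on both strands and in the same windows, was in 26.7% of the member promoters and in 15.9% of genes. The 8 promoters with CACGTG belong to Nop2, Pes1, Wdr43, Utp20, Utp18, Ltv1, Tsr1 and Rrn3, and a match describes letters only, not binding. The windows below, each 30 bases long and written 5′ to 3′ on the strand of the gene, show where it lies in 7 of them, with the motif in capitals. The gene start is position 1 where positions are counted, and negative positions lie before it.
Nop2 (chr6:125131811-125131840, plus strand, motif at -60): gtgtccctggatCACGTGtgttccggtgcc
Pes1 (chr11:3963965-3963994, plus strand, motif at 3): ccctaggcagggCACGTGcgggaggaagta
Wdr43 (chr17:71616220-71616249, plus strand, motif at 18): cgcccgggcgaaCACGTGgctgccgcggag
Utp18 (chr11:93885769-93885798, minus strand, motif at -20): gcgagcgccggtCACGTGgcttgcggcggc
Ltv1 (chr10:13193092-13193121, minus strand, motif at 29): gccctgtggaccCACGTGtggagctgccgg
Tsr1 (chr11:74898092-74898121, plus strand, motif at 25): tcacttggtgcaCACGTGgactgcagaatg
Rrn3 (chr16:13780472-13780501, plus strand, copy at -215): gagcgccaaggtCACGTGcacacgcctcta
Rrn3 (chr16:13780639-13780668, plus strand, copy at -48): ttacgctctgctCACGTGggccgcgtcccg
Rrn3 was the member with 2 copies. Longer context is shown for Nop2, an rRNA methyltransferase gene of the large-subunit pathway, whose 250 bases before the start (chr6:125131633-125131882, plus strand) hold the motif once.
Nop2 upstream: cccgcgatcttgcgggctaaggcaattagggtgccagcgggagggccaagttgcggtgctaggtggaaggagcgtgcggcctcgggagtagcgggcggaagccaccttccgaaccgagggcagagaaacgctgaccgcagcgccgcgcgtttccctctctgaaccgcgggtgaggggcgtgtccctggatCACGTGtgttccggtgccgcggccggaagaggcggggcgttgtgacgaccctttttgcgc

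The depth sets differed in the members themselves, so they are described before any group is compared. Among wild-type myoblasts, 19 of 36 members were lower in the shallow libraries than in the deep ones and none was higher at an adjusted p (Benjamini-Hochberg) under 0.05 in an edgeR quasi-likelihood fit, where 12% of all genes tested were lower. The same comparison in wild-type myotubes gave 7 lower members and none higher, where 7.92% of all genes were lower. Fbl, the box C/D methyltransferase, had the widest gap in myotubes and Npm1 in myoblasts. The sets also differ in the Y-linked gene Ddx3y, which ran from 0.15 to 0.46 CPM in the 4 wild-type libraries of the shallow set and from 27.6 to 176 CPM in the 5 of the deep set, and its part was not tested. Fbl had 5.54 and 5.09 CPM in the shallow wild-type myotubes 4 and 5, against 77.2, 91.6 and 63.5 CPM in the deep wild-type myotubes 1 to 3. In wild-type myoblasts it had 13.2 and 12.6 CPM in the shallow libraries 3 and 4, against 157 and 141 CPM in the deep libraries 1 and 2. Its log2 fold change of shallow over deep libraries was -3.86 ± 0.25 in wild-type myotubes and -3.53 ± 0.25 in wild-type myoblasts (± SE, adjusted p = 8.50e-07 and 1.89e-06, edgeR). For Npm1, a nucleolar chaperone of ribosome assembly and export, the values were -3.10 ± 0.27 in wild-type myotubes and -4.11 ± 0.29 in wild-type myoblasts (adjusted p = 8.86e-06 and 2.13e-06, edgeR).

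Ncl, which encodes the rRNA-binding protein nucleolin, and Nop56, a core box C/D protein gene, were also lower in the shallow libraries of both cell types. Small nucleolar RNA rows made up 2.81 to 7.18% of counts in shallow libraries and 0.0280 to 0.177% in deep ones. Of the members, 5 (Ncl, Nop56, Nop58, Wdr43 and Tsr1) hold such genes inside their own span that have rows of their own. Snord57, which lies inside Nop56, had 872 to 1962 CPM in shallow libraries and 0.12 to 1.09 CPM in deep ones. Snord70, inside Nop58, ran from 113 to 587 CPM in shallow libraries and from 0.38 to 1.14 CPM in deep ones, and the host genes Nop56 and Nop58 were themselves lower in shallow than in deep wild-type myoblasts. The sources used here do not give how reads in such introns were assigned, so counts of these 5 host genes are uncertain, as are those of Npm1, which is known to have processed copies in mammalian genomes. Because of the sets, each comparison below is given for all libraries together and inside a set where both of its groups have libraries.

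The genotype comparison in myoblasts asks whether loss of the imprinting control region went with a different level of the ribosome assembly genes in dividing cells. Set against the wild-type myoblasts of the same depth, most members were higher in dICR/dICR myoblasts: within the shallow set 23 of 36 rose and none fell, with a median log2 fold change of 0.75 (n = 2 each). Among all genes, 21.6% were called in this fit, 11.3% as higher, and the median was 0.01. Over all libraries (n = 2 and 4) none of the 36 passed, where edgeR called 0.0302% of all genes at the adjusted threshold. An unadjusted p under 0.05 was found for 6 members, and the all-gene share at that threshold is not given here. DESeq2 called 1 member, Rrp1b, and 1.85% of all genes. Here and below, DESeq2 shares are of all 23366 genes of the table and edgeR shares of the genes tested. They are therefore not directly comparable. The 23 calls within the shallow set took in 8 of 9 processome, 3 of 4 box C/D and 4 of 5 large-subunit genes.

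Among the nucleolar proteins Npm1 and Nolc1 rose within the shallow set. Npm1 had 291 and 349.5 CPM in dICR/dICR myoblasts, against 2081, 2640.4, 145 and 128 CPM in wild-type myoblasts 1 to 4. Both dICR/dICR values lie above the shallow wild-type libraries 3 and 4 and far below the deep libraries 1 and 2. The log2 fold change was 1.26 ± 0.18 within the shallow set (adjusted p = 0.00522, edgeR) and -1.96 ± 1.31 over all libraries (adjusted p = 0.538). Nolc1, a chaperone of small nucleolar ribonucleoproteins, stood at 202 and 257 CPM in dICR/dICR myoblasts and at 188, 192, 136 and 129 CPM in wild-type myoblasts, with no overlap. Ncl, with 329 and 351 CPM in dICR/dICR myoblasts and 973, 938, 222 and 267 CPM in wild-type myoblasts, did not pass in either fit (0.50 ± 0.23 within the shallow set, adjusted p = 0.157; -0.82 ± 0.67 over all libraries, adjusted p = 0.618, edgeR).

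In the small-subunit processome, the large particle that cuts the precursor on the way to the small subunit, 8 of 9 members rose within the shallow set and Rrp12 did not. Wdr43, a subunit of the UTP-A module that joins transcription to processing, had 290.4 and 335 CPM in dICR/dICR myoblasts, against 219.8, 188, 142 and 131 CPM in wild-type myoblasts. It was higher in each dICR/dICR library than in each of the 4 wild-type ones, whatever their depth. Its log2 fold change was 1.21 ± 0.17 within the shallow set (adjusted p = 0.00475, edgeR) and 0.87 ± 0.33 over all libraries (adjusted p = 0.33). Utp18, of the UTP-B module, had 96.9 and 115 CPM in dICR/dICR myoblasts, against 128, 123, 46.4 and 45.4 CPM in wild-type myoblasts. Here the deep wild-type libraries lie above both dICR/dICR values and the shallow ones below, so that the value of 1.23 ± 0.17 within the shallow set (adjusted p = 0.00494, edgeR) stands beside 0.30 ± 0.43 over all libraries (adjusted p = 0.794). Heatr1, whose yeast counterpart belongs to the UTP-A module, had 253 and 283 CPM in dICR/dICR myoblasts and 264, 222, 144 and 121 CPM in wild-type myoblasts, and Utp20, another large processome protein gene, had 353 and 259 CPM in dICR/dICR myoblasts and 332, 259, 164 and 144 CPM in wild-type myoblasts. The dICR/dICR values of these genes are near the deep wild-type libraries and above the shallow ones.

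**Figure D2:**
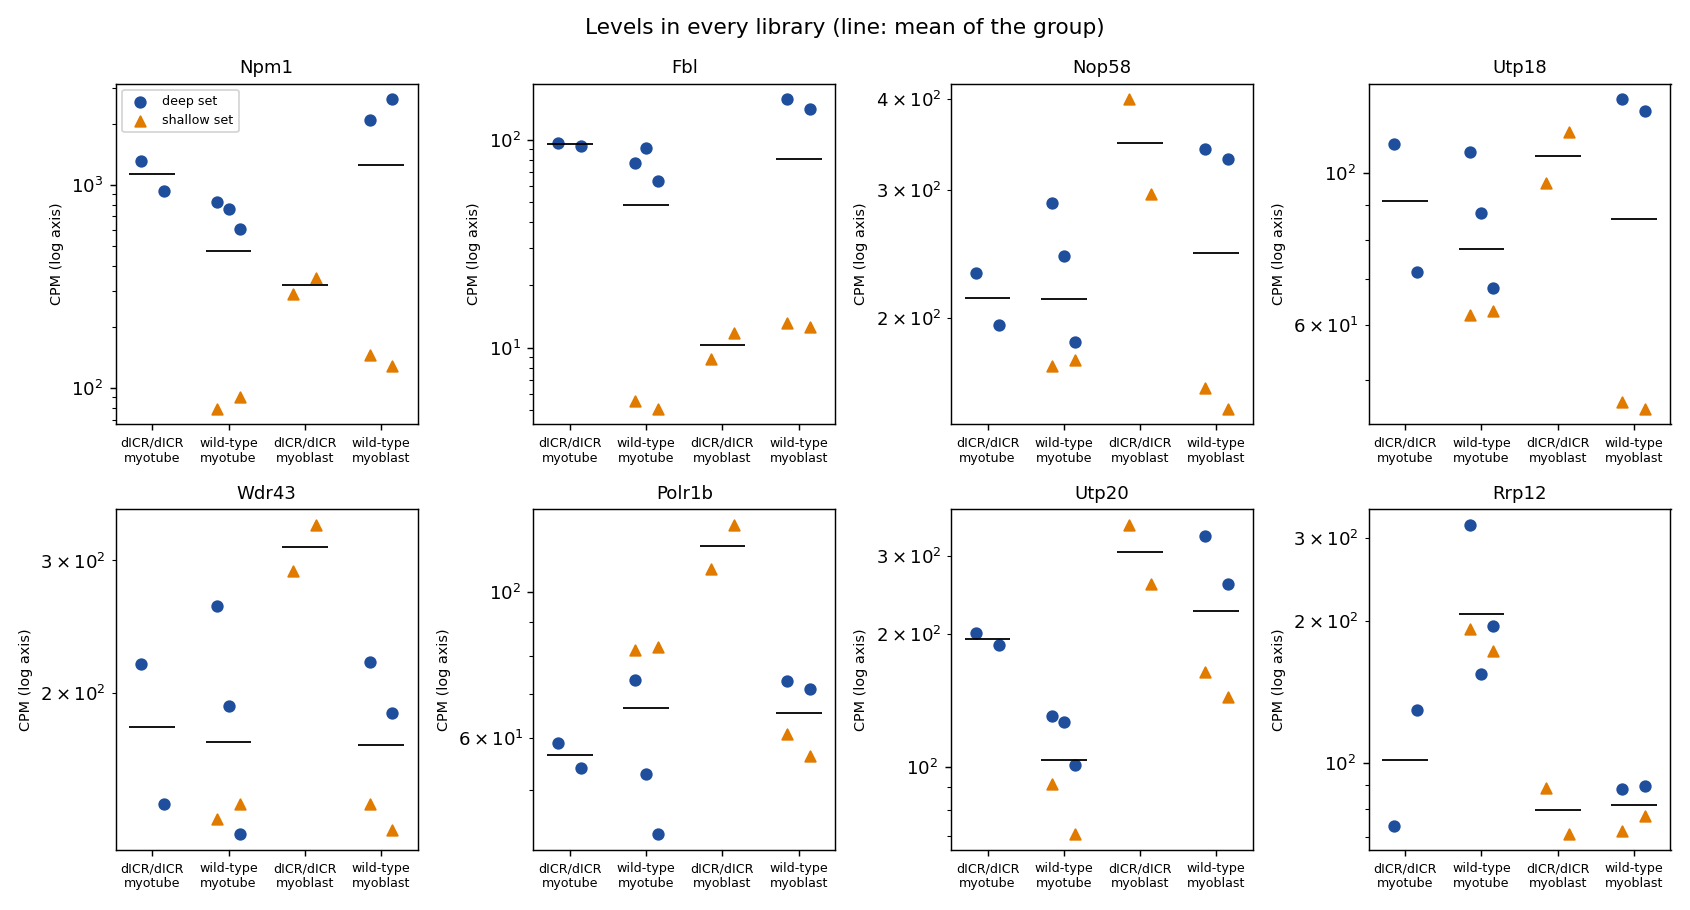
Level in CPM (log axis, one point a library, line at the group mean) of 8 members in dICR/dICR myotubes, wild-type myotubes, dICR/dICR myoblasts and wild-type myoblasts; circles are deep and triangles shallow libraries. For Npm1 and Fbl the sets separate more than the groups do, whereas Wdr43 and Polr1b are higher in both dICR/dICR myoblast libraries than in all 4 wild-type myoblast libraries, and Rrp12 is higher in each of the 5 wild-type myotube libraries than in the other 8 libraries.

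Of the 4 box C/D members 3 rose within the shallow set. Nop58, a core protein of the particle, had 400.1 and 297 CPM in dICR/dICR myoblasts, against 341, 331, 160.0 and 150.0 CPM in wild-type myoblasts, a log2 fold change of 1.19 ± 0.19 within the shallow set (adjusted p = 0.00624, edgeR). Nop56, its partner, had 166 and 234 CPM in dICR/dICR myoblasts and 328, 326, 105 and 99.6 CPM in wild-type myoblasts, and so lies between the deep and the shallow wild-type libraries. Rrp9, which binds the U3 small nucleolar RNA, had 92.3 and 110.1 CPM in dICR/dICR myoblasts and 72.2, 72.0, 51.9 and 59.8 CPM in wild-type myoblasts, with no overlap. Fbl went the other way in level without passing: it had 8.83 and 11.7 CPM in dICR/dICR myoblasts, against 157, 141, 13.2 and 12.6 CPM in wild-type myoblasts, with -0.31 ± 0.28 within the shallow set (adjusted p = 0.461, edgeR) and -2.99 ± 1.40 over all libraries (adjusted p = 0.419). Of the box H/ACA genes, Dkc1, the pseudouridine synthase, was the 1 of 4 called within the shallow set, with 125 and 147 CPM in dICR/dICR myoblasts and 157, 159, 73.4 and 68.3 CPM in wild-type myoblasts. Nhp2, Nop10 and Gar1, which encode its core partners, did not pass.

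Large-subunit genes rose in 4 of 5 cases within the shallow set, and in 2 of 3 cases in the PeBoW complex, which processes the large-subunit rRNA. Rrp1b, a nucleolar factor of large-subunit assembly, had 92.7 and 109 CPM in dICR/dICR myoblasts and 73.6, 68.9, 45 and 48.6 CPM in wild-type myoblasts, with log2 fold changes of 1.13 ± 0.17 within the shallow set (adjusted p = 0.00615, edgeR) and 0.77 ± 0.23 over all libraries (adjusted p = 0.222). Nip7, known from yeast as a large-subunit assembly factor, had 118 and 133 CPM in dICR/dICR myoblasts and 76.5, 87.0, 58.6 and 55.9 CPM in wild-type myoblasts, with 1.16 ± 0.17 within the shallow set (adjusted p = 0.00559, edgeR) and 0.86 ± 0.31 over all libraries (adjusted p = 0.308). For both genes the dICR/dICR libraries lie above all 4 wild-type libraries, deep and shallow. In the PeBoW complex, Pes1 and Wdr12 were called, whereas Bop1 had 119 and 195 CPM in dICR/dICR myoblasts and 129, 156, 131 and 123 CPM in wild-type myoblasts and did not pass. Of the 4 late small-subunit genes Tsr1, a GTPase-like factor of small-subunit maturation, was called.

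RNA polymerase I genes were called in 2 of 4 cases. Polr1b, which encodes a catalytic subunit of the polymerase, had 108 and 126 CPM in dICR/dICR myoblasts, against 73.2, 71.3, 60.8 and 56.4 CPM in wild-type myoblasts, with log2 fold changes of 1.02 ± 0.16 within the shallow set (adjusted p = 0.00673, edgeR) and 0.84 ± 0.26 over all libraries (adjusted p = 0.245). Ubtf, whose protein coats active ribosomal DNA, had 216 and 265 CPM in dICR/dICR myoblasts and 174, 168, 161 and 149 CPM in wild-type myoblasts. For both genes every dICR/dICR library was higher than every wild-type library. The other catalytic subunit gene, Polr1a, had 168 and 219 CPM in dICR/dICR myoblasts and 233, 218, 163 and 164 CPM in wild-type myoblasts, and Rrn3, which encodes the growth-regulated initiation factor, had 248 and 246 CPM in dICR/dICR myoblasts and 266, 225, 224 and 194 CPM in wild-type myoblasts; neither passed in either fit.

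Counted by overlap over all libraries, 8 members were higher in each dICR/dICR myoblast library than in each wild-type one (Nop2, Nolc1, Wdr43, Rrp1b, Rrp9, Polr1b, Ubtf and Nip7), where 14.2% of all genes were so placed, and Fbl was lower, as were 14.3% of all genes. Within the shallow set 29 members were higher without overlap, against 30.7% of all genes, and Fbl was lower, as were 29.8%. Of the 8 members with CACGTG in the promoter 6 rose within the shallow set, and of the 22 with a promoter but no CACGTG 14 did. MYC itself did not pass: Myc had 17.8 and 26.5 CPM in dICR/dICR myoblasts, against 67.0, 68.0, 10.1 and 12.6 CPM in wild-type myoblasts, with 0.99 ± 0.31 within the shallow set (adjusted p = 0.0581, edgeR).

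The myoblast calls need both shallow wild-type libraries. Without wild-type myoblast 3, or without wild-type myoblast 4, which leaves 1 library assumed to vary like the other groups, no member was called within the shallow set, while the median stayed at 0.75 and 0.74. Over the libraries left without both of them no member was called and the median was -0.06. A contrast of the same libraries with the spread estimated over all 13 called 8 members (Heatr1, Nop58, Npm1, Polr1b, Rrp1b, Utp18, Utp20 and Wdr43; background 5.25%), and depth set as an added term called 2 (Rrp1b and Wdr43; background 2.01%). The chi-square per degree of freedom, which grows with depth, was 34.3 between the dICR/dICR myoblasts (6.33 and 10.91 M counts) and 4.67 between wild-type myoblasts 3 and 4 (6.95 and 5.55 M). The pairs also differed in other ways, whose part in the result was not tested. The mean log2 CPM over 24 proliferation genes was 7.07 and 7.30 in dICR/dICR myoblasts, against 6.11 and 6.01 in wild-type myoblasts 3 and 4. Over 18 muscle differentiation genes it was 7.16 and 6.30 in dICR/dICR myoblasts, against 8.87 and 8.99 in wild-type myoblasts 3 and 4. Summed levels of 10 smooth muscle and pericyte markers were 328 and 208 CPM in dICR/dICR myoblasts and 527 and 597 CPM in wild-type myoblasts 3 and 4. Of the 8 tested 4 fell, while 1 of 5 fibroblast markers tested fell. Summed adipocyte markers were 35.9 and 91.7 CPM in dICR/dICR myoblasts and 8.88 and 9.04 CPM in wild-type myoblasts 3 and 4, with 1 of 2 tested higher (Lpl), and summed Schwann cell markers were 14.4 and 19.5 CPM in dICR/dICR myoblasts and 9.13 and 9.80 CPM in wild-type myoblasts 3 and 4, with 1 of 3 tested higher (Pmp22). The Y-linked gene Ddx3y had 14.5 and 63.1 CPM in dICR/dICR myoblasts and 0.247 and 0.153 CPM in wild-type myoblasts 3 and 4. In bulk RNA, fewer cells in which these genes are active and less RNA of them per cell cannot be told apart.

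Other lists of the same pathway were placed beside the members in that fit, as counts. Of the other small-subunit factors 18 of 38 rose, with a median log2 fold change of 0.66, and the 3 with the smallest p were Aatf, Wdr36 and Pwp2. Aatf, which encodes a protein of a nucleolar complex that aids processing, changed by 1.14 ± 0.17 (adjusted p = 0.00538, edgeR), Wdr36 by 1.22 ± 0.21 (adjusted p = 0.00839, edgeR) and Pwp2 by 0.97 ± 0.17 (adjusted p = 0.0085, edgeR). Of the other large-subunit factors 18 of 49 rose, led by Gnl3, the nucleolar GTPase nucleostemin, at 1.08 ± 0.16 (adjusted p = 0.00522, edgeR), with Urb1 and Rsl1d1 next. The list of other RNA polymerase I genes gave 2 of 11, Tcof1 (the ribosomal DNA transcription factor treacle) and Twistnb. In none of these lists did a gene fall.

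Urb1 was also the one pathway gene called over all libraries: it had 84.2 and 109 CPM in dICR/dICR myoblasts, against 40.5, 35.6, 36.6 and 41.8 CPM in wild-type myoblasts, or 1.32 ± 0.19 on the log2 scale (adjusted p = 0.0459, edgeR). No gene was called over all libraries with snoRNA rows left out or with a replicate block, so this call is lost in both. Both dICR/dICR libraries lie above all 4 wild-type ones, and the deep and shallow wild-type values are close. The cytosolic ribosomal proteins, which are built into the subunits that the members assemble, gave 5 higher and 1 lower of 76 within the shallow set, with a median of 0.09. Of the MYC network genes, Mycl1 and Mxd4 fell and none of 10 rose. The proliferation list gave 20 of 24 higher with a median of 1.29, and the muscle differentiation list 16 of 18 lower with a median of -2.10.

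**Figure D3:**
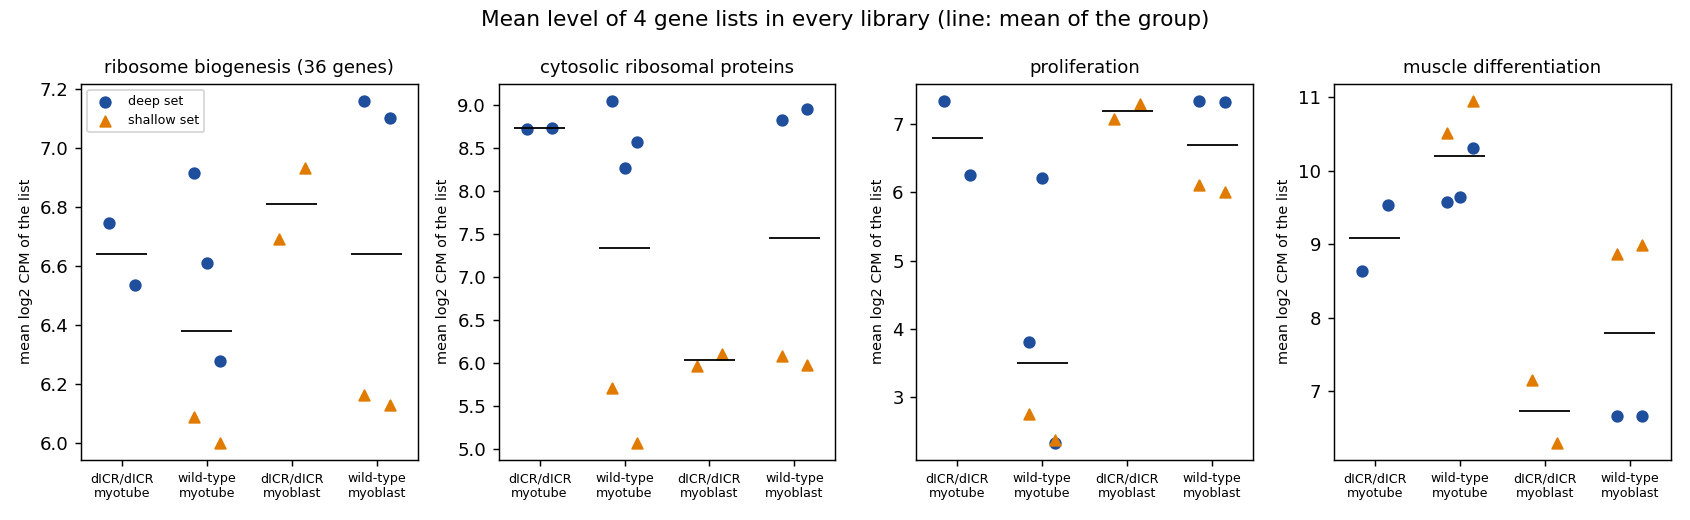
Mean log2 CPM of 4 gene lists in each library, by group (dICR/dICR myotubes, wild-type myotubes, dICR/dICR myoblasts and wild-type myoblasts, line at the group mean); circles are deep and triangles shallow libraries. The cytosolic ribosomal protein list falls into 2 bands by depth set, while wild-type myoblasts 3 and 4 have lower ribosome biogenesis and proliferation means and higher muscle differentiation means than the other myoblast libraries.

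In myotubes, none of the 36 members passed between genotypes. Over all libraries (n = 2 and 5) the median log2 fold change was 0.13, and edgeR called 0.556% of all genes at the adjusted threshold. DESeq2 called 1 member and 4.61% of all genes, and edgeR with depth set as a term called none and 2.57%. Within the deep set (n = 2 and 3) the median was -0.03 and 0.709% of all genes were called at the adjusted threshold. An unadjusted p under 0.05 was found for 2 members over all libraries and 3 within the deep set. For these counts the all-gene share is not given here. The widest gap below wild type was that of Rrp12, whose yeast counterpart takes part in export and maturation of both subunits. It had 73.6 and 129.5 CPM in dICR/dICR myotubes, against 320.3, 155, 195, 192 and 173 CPM in wild-type myotubes 1 to 5. Each wild-type library was higher than both dICR/dICR ones, and the 2 dICR/dICR libraries differ from each other by more than the 3 lowest wild-type libraries do. The log2 fold change was -1.03 ± 0.32 over all libraries (adjusted p = 0.148, edgeR) and -1.15 ± 0.37 within the deep set (adjusted p = 0.19); DESeq2, which fits the spread differently, gave -1.10 ± 0.32 (adjusted p = 0.0164).

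Rrp9 was the next lowest, with 42.9 and 45.1 CPM in dICR/dICR myotubes and 85.6, 61.1, 38.4, 49.6 and 45.6 CPM in wild-type myotubes, whose ranges overlap. The log2 fold change was -0.35 ± 0.29 over all libraries (adjusted p = 0.548, edgeR). The largest positive values were those of Npm1 and Fbl. Npm1 had 1317 and 933 CPM in dICR/dICR myotubes, against 823, 759, 608, 79.3 and 90.9 CPM in wild-type myotubes, and 1.25 ± 1.09 over all libraries (adjusted p = 0.577, edgeR) became 0.61 ± 0.28 within the deep set (adjusted p = 0.319). Fbl had 96.9 and 92.8 CPM in dICR/dICR myotubes, against 77.2, 91.6, 63.5, 5.54 and 5.09 CPM in wild-type myotubes, with 0.96 ± 1.10 over all libraries (adjusted p = 0.682, edgeR) and 0.28 ± 0.22 within the deep set (adjusted p = 0.533). For both, the low wild-type values are those of the shallow libraries 4 and 5.

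None of the 4 polymerase I genes was called between genotypes in myotubes. Polr1a had 173 and 147 CPM in dICR/dICR myotubes and 221, 183, 191, 177 and 193 CPM in wild-type myotubes, and Polr1b had 59.1 and 54.1 CPM in dICR/dICR myotubes and 73.5, 53.0, 42.9, 81.6 and 82.3 CPM in wild-type myotubes. Rrn3 stood at 240.3 and 208 CPM in dICR/dICR myotubes and 419, 241, 226, 248 and 235 CPM in wild-type myotubes, and Ubtf at 172 and 160.1 CPM in dICR/dICR myotubes and 236, 173, 101, 141 and 151 CPM in wild-type myotubes. Of these 4, Polr1a alone did not overlap, with both dICR/dICR values below the wild-type ones.

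Ncl had 512 and 556 CPM in dICR/dICR myotubes and 302, 573, 412, 138 and 209 CPM in wild-type myotubes. Nop56 had 204 and 164 CPM in dICR/dICR myotubes and 184, 187, 115, 77.9 and 64.2 CPM in wild-type myotubes, and Dkc1 had 95.6 and 60.6 CPM in dICR/dICR myotubes and 77.5, 89.6, 39.1, 44.8 and 38.7 CPM in wild-type myotubes. Bop1 had 123 and 126 CPM in dICR/dICR myotubes and 152, 118, 120.2, 179 and 135 CPM in wild-type myotubes. The genotypes overlap in all 4 of these genes. By overlap, 8 members were higher in each dICR/dICR myotube library (Npm1, Fbl, Nop16, Nolc1, Nhp2, Utp20, Rrp1b and Nob1), where 10.5% of all genes were, and 2 were lower (Rrp12 and Polr1a), where 8.76% were. Against the deep wild-type libraries alone the same 8 and 2 members stood apart, with 15.3% of all genes higher and 13.7% lower.

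The mean log2 CPM of 24 proliferation genes was 7.34 and 6.26 in dICR/dICR myotubes, against 3.81, 6.21, 2.34, 2.75 and 2.38 in wild-type myotubes. The members' own mean log2 CPM was 6.75 and 6.54 in dICR/dICR myotubes and 6.92, 6.61, 6.28, 6.09 and 6.0 in wild-type myotubes, and the part of dividing cells in the values was not tested.

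In wild type, differentiation for 24 hours went with a higher level of Rrp12 and lower levels of a few other members. Counted in both directions, the share of calls was below or near that of all genes. In the deep set, and with depth set as a term, the share called lower was above that of all genes. Over all libraries and in the shallow set it was not. Over all libraries (n = 5 and 4) Rrp12 rose and Nhp2, Utp20 and Nolc1 fell, which is 4 of 36 members, where 19.1% of all genes were called. Within the deep set (n = 3 and 2) Rrp12 rose and 9 members fell, where 22.2% of all genes were called, 11.6% higher and 10.6% lower. Within the shallow set (n = 2 each) Rrp12 and Nip7 rose and 4 members fell. There 22.6% of all genes were called, 11.2% higher and 11.4% lower. The calls shared by both sets were Rrp12, Fbl, Npm1 and Utp20, each with the same direction. The median of the members was -0.19 over all libraries, -0.39 in the deep set and -0.02 in the shallow set. The chi-square per degree of freedom was 39.8 between wild-type myoblasts 1 and 2, the myoblast pair of the deep set. Between pairs of wild-type myotubes 1 to 3 it was 246 to 308. In the shallow set it was 4.67 between wild-type myoblasts 3 and 4 and 21.9 between wild-type myotubes 4 and 5. Within each set the calls thus rest on a myoblast pair that varied less than the myotubes.

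Rrp12 had 320.3, 155, 195, 192 and 173 CPM in wild-type myotubes 1 to 5, against 88.5, 89.5, 71.8 and 77.2 CPM in wild-type myoblasts 1 to 4. All myotube libraries of both sets lie above all myoblast libraries, and the means were 207 ± 65.3 CPM in wild-type myotubes (SD, n = 5) and 81.7 ± 8.66 CPM in wild-type myoblasts (SD, n = 4). The log2 fold change was 1.34 ± 0.25 over all libraries (adjusted p = 0.00444, edgeR), 1.36 ± 0.38 in the deep set (adjusted p = 0.0392) and 1.32 ± 0.17 in the shallow set (adjusted p = 0.00205). Among the 9 processome members Rrp12 was thus the 1 that rose and Utp20 the 1 that fell. Utp20 had 130.3, 127, 101, 91.4 and 70.5 CPM in wild-type myotubes, against 332, 259, 164 and 144 CPM in wild-type myoblasts, or -1.11 ± 0.27 on the log2 scale (adjusted p = 0.0158, edgeR), with -1.28 ± 0.21 in the deep set and -0.91 ± 0.21 in the shallow set.

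The nucleolar proteins fell in the deep set in 3 of 3 cases. Nolc1 had 119.9, 86.0, 92.0, 98.4 and 101 CPM in wild-type myotubes, against 188, 192, 136 and 129 CPM in wild-type myoblasts, and did not overlap. Its log2 fold change was -0.70 ± 0.18 over all libraries (adjusted p = 0.02, edgeR), -0.91 ± 0.20 in the deep set (adjusted p = 0.0203) and -0.39 ± 0.18 in the shallow set, where it did not pass (adjusted p = 0.155). Npm1 had 823, 759 and 608 CPM in wild-type myotubes 1 to 3 and 2081 and 2640.4 CPM in wild-type myoblasts 1 and 2, the deep libraries. In the shallow libraries it had 79.3 and 90.9 CPM in wild-type myotubes 4 and 5, against 145 and 128 CPM in wild-type myoblasts 3 and 4. Within each set its levels were lower in myotubes without overlap, with log2 fold changes of -1.66 ± 0.28 (adjusted p = 0.00835, edgeR) in the deep set and -0.66 ± 0.18 (adjusted p = 0.0359) in the shallow set. Pooled over the sets, the value of -1.40 ± 0.92 did not pass (adjusted p = 0.319, edgeR). Ncl had 302, 573, 412, 138 and 209 CPM in wild-type myotubes and 973, 938, 222 and 267 CPM in wild-type myoblasts, with -1.12 ± 0.29 in the deep set (adjusted p = 0.0326, edgeR) and -0.48 ± 0.23 in the shallow set (adjusted p = 0.175).

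Among snoRNP proteins, Fbl, Nop56, Nhp2 and Gar1 fell in the deep set and Fbl and Dkc1 in the shallow set. Nhp2, of the box H/ACA core, had 47.9, 46.2, 35.2, 36.9 and 25.1 CPM in wild-type myotubes, against 124, 145, 63.3 and 60.5 CPM in wild-type myoblasts. No myotube library reached the lowest myoblast library, and the log2 fold change was -1.36 ± 0.32 over all libraries (adjusted p = 0.014, edgeR), -1.61 ± 0.23 in the deep set (adjusted p = 0.00493) and -0.97 ± 0.37 in the shallow set (adjusted p = 0.101). Dkc1 had 77.5, 89.6, 39.1, 44.8 and 38.7 CPM in wild-type myotubes and 157, 159, 73.4 and 68.3 CPM in wild-type myoblasts. Fbl, whose levels by set are given above, changed by -0.91 ± 0.21 in the deep set (adjusted p = 0.0232, edgeR) and by -1.25 ± 0.30 in the shallow set (adjusted p = 0.0226). Nop56 had 184, 187, 115, 77.9 and 64.2 CPM in wild-type myotubes and 328, 326, 105 and 99.6 CPM in wild-type myoblasts. In Dkc1 and Nop56 the libraries overlap when the sets are pooled and do not within a set.

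Members of the late small-subunit, PeBoW and RNA polymerase I groups gave no call in wild-type differentiation over all libraries or within a set, although Polr1b was called higher (0.49, adjusted p = 0.0345, edgeR) when the shallow fit held only these 2 groups. Polr1a had 221, 183, 191, 177 and 193 CPM in wild-type myotubes and 233, 218, 163 and 164 CPM in wild-type myoblasts. Polr1b had 73.5, 53.0, 42.9, 81.6 and 82.3 CPM in wild-type myotubes and 73.2, 71.3, 60.8 and 56.4 CPM in wild-type myoblasts. Rrn3 ran at 419, 241, 226, 248 and 235 CPM in wild-type myotubes and 266, 225, 224 and 194 CPM in wild-type myoblasts, and myotube 1 stands far above the other libraries. Ubtf had 236, 173, 101, 141 and 151 CPM in wild-type myotubes and 174, 168, 161 and 149 CPM in wild-type myoblasts, and Bop1 had 152, 118, 120.2, 179 and 135 CPM in wild-type myotubes and 129, 156, 131 and 123 CPM in wild-type myoblasts. Pooled over the sets, myotubes and myoblasts overlap in each of these genes, but within the shallow set Polr1a, Polr1b, Rrn3 and Bop1 are higher in myotubes without overlap. Of the large-subunit genes Nop16 fell in the deep set, with 38.0, 30.8 and 26.2 CPM in wild-type myotubes 1 to 3 and 61.7 and 68.3 CPM in wild-type myoblasts 1 and 2. Nip7 rose in the shallow set, by 0.65 ± 0.17 (adjusted p = 0.032, edgeR), with 96.7 and 80.1 CPM in wild-type myotubes 4 and 5 and 58.6 and 55.9 CPM in wild-type myoblasts 3 and 4. It was not called over all libraries (0.42 ± 0.24, adjusted p = 0.253).

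**Figure D4:**
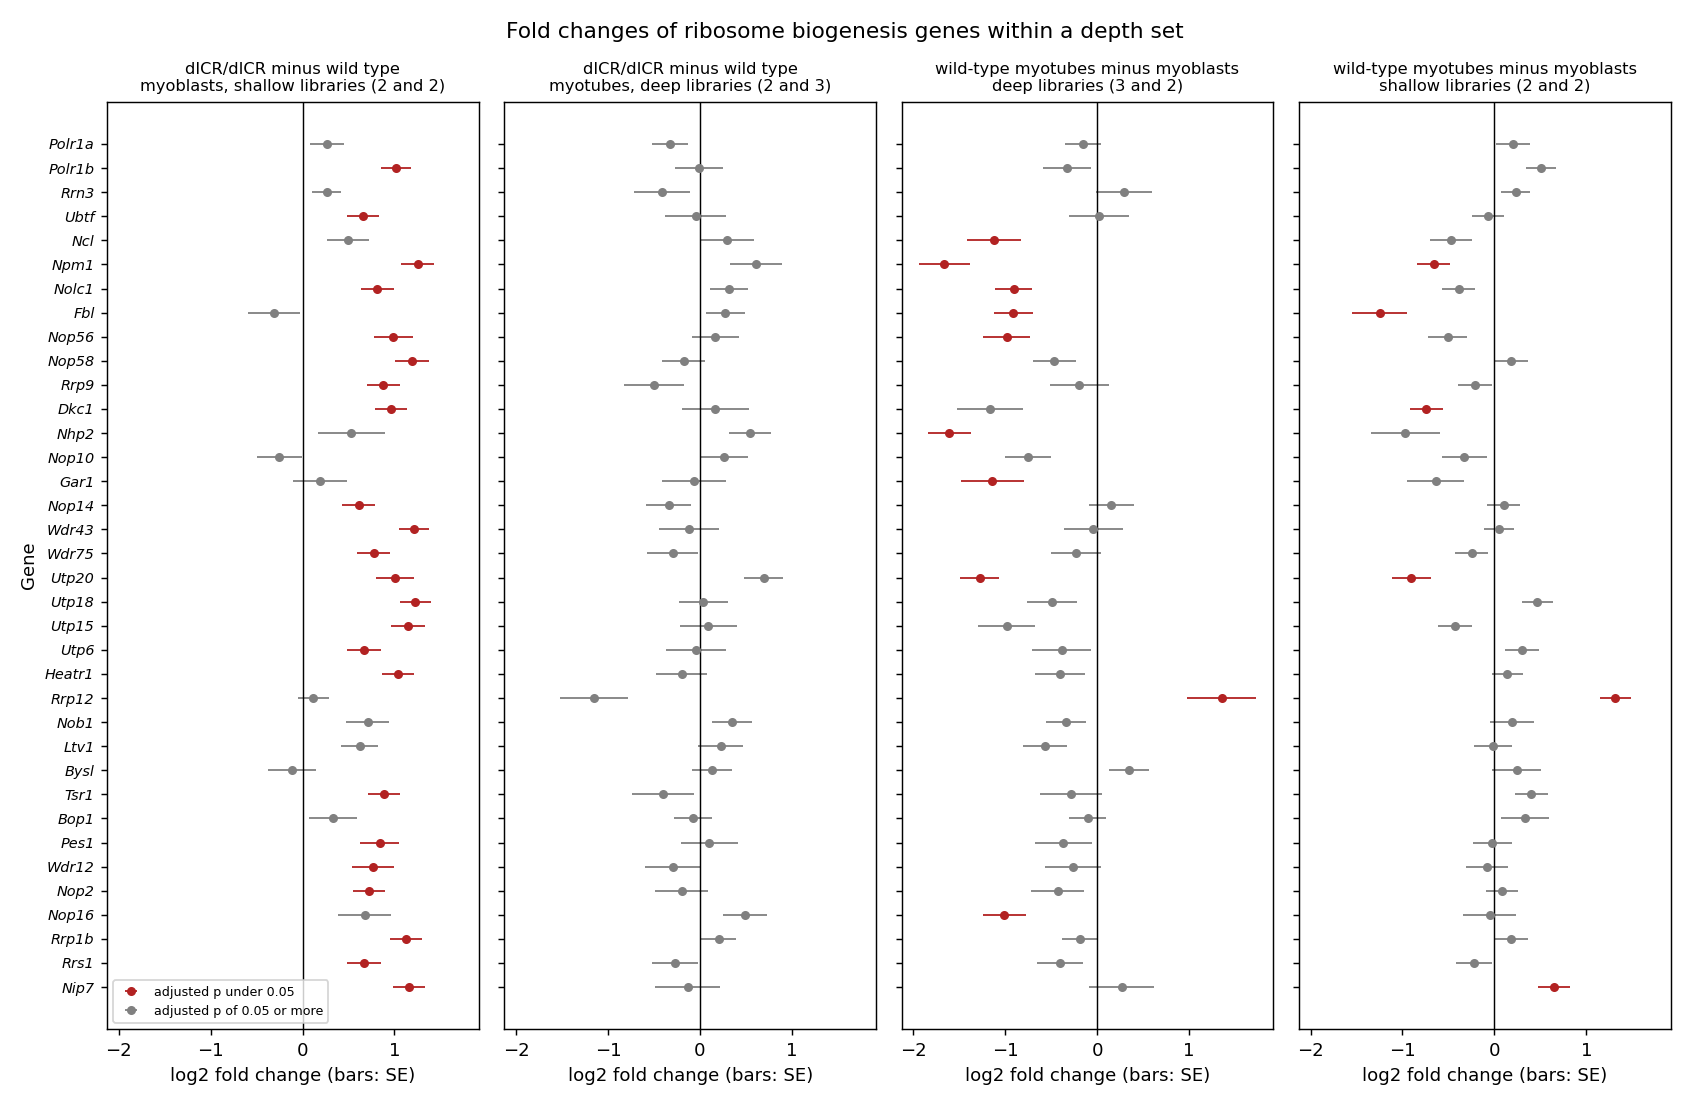
Log2 fold change with its SE (edgeR) of each of the 36 members, by role, in the genotype comparison in shallow myoblasts and deep myotubes and in wild-type differentiation in the deep and the shallow set; red marks an adjusted p under 0.05. In shallow myoblasts 23 genes are red to the right of 0, in deep myotubes none is red, and Rrp12 is red to the right of 0 in both differentiation panels.

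By overlap over all libraries, Rrp12 was higher in each wild-type myotube library than in each wild-type myoblast library, as were 9.07% of all genes, and Nolc1, Nhp2 and Utp20 were lower, as were 9.91%. In the deep set 2 members were higher without overlap (Rrp12 and Bysl; 26.5% of all genes) and 18 lower (29.9%), and in the shallow set 12 were higher (31%) and 13 lower (31.2%). DESeq2 called 5 members over all libraries, the same 4 and Dkc1, and 18.3% of all genes. Leaving out 1 library of a wild-type pair leaves 1, assumed to vary like the other groups, and lowers the number of calls within a set. Without wild-type myoblast 1 or 2 no member was called in the deep set, with medians of -0.34 and -0.43, leaving out wild-type myotube 3 gave 3, and in the shallow set it was 0 without wild-type myoblast 3, 1 without wild-type myoblast 4, 3 without wild-type myotube 4 and, with wild-type myotube 5 left out, 2. Without dICR/dICR myoblast 1, or without dICR/dICR myoblast 2, which enter the shallow fit only through its estimate of spread, the count was 10. Over all libraries it ran from 3 to 5, and Rrp12 stayed past the threshold in each of these 13 fits.

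With depth set as a term, 1 member rose and 11 fell in wild-type differentiation, where 31.8% of all genes were called, 15.3% higher and 16.6% lower. Mean log2 CPM of the 24 proliferation genes was 3.81, 6.21, 2.34, 2.75 and 2.38 in wild-type myotubes 1 to 5, against 7.33, 7.32, 6.11 and 6.01 in wild-type myoblasts, so myotube 2 stands apart from the other myotube libraries. The 18 muscle differentiation genes had means of 9.58, 9.64, 10.31, 10.52 and 10.96 in wild-type myotubes and 6.66, 6.67, 8.87 and 8.99 in wild-type myoblasts, where the shallow myoblasts 3 and 4 are higher than the deep ones. Summed smooth muscle and pericyte markers were 2397 to 4777 CPM in wild-type myotubes and 145 to 597 CPM in wild-type myoblasts, with 3 of 9 tested higher and 1 lower. The part of these differences in the members' values was not tested.

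Pathway lists outside the members changed in few genes over all libraries. Of the other small-subunit factors 4 of 38 fell, of which Nop9, Imp3 and Emg1 had the smallest p, and Nop9 changed by -0.65 ± 0.19 (adjusted p = 0.0302, edgeR). Of the other large-subunit factors 1 of 49 was called, Zfp622, which rose by 0.77 ± 0.23 (adjusted p = 0.0328, edgeR). Among the other RNA polymerase I genes 2 of 11 fell, Polr1c, which encodes a subunit shared with RNA polymerase III, at -0.89 ± 0.21 (adjusted p = 0.0118, edgeR) and Polr1e at -0.61 ± 0.17 (adjusted p = 0.028). Of the cytosolic ribosomal proteins, whose levels separate by depth set, none of 78 was called by edgeR over all libraries, with 0 at an unadjusted p under 0.05, whereas 1 of 78 fell in the deep set, 14 of 76 in the shallow set and 12 of 78 with set as a term.

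Myc had 5.18, 31.7, 17.9, 6.93 and 4.89 CPM in wild-type myotubes, against 67.0, 68.0, 10.1 and 12.6 CPM in wild-type myoblasts, and was not called over all libraries (-1.55 ± 0.68, adjusted p = 0.13, edgeR). With depth set as a term it was called, at -1.5 ± 0.41 (adjusted p = 0.0139, edgeR). In the MYC network Mxi1, which encodes a MAX partner that opposes MYC, fell, at -1.06 ± 0.24 on the log2 scale (adjusted p = 0.012, edgeR).

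In dICR/dICR cells the myotube and myoblast libraries lie in different depth sets, so differentiation and depth set cannot be told apart without borrowing the set difference from wild type. Over all libraries (n = 2 each) none of the 36 members passed in edgeR, which called 0.145% of all genes at the adjusted threshold. An unadjusted p under 0.05 was found for 4 members, and the all-gene share at that threshold is not given here. DESeq2 called 4 lower (Nolc1, Nop2, Polr1b and Rrp9) and 5.05% of all genes, 2.61% as lower. With depth set as a term 13 members fell and none rose, where 7.63% of all genes were called, 4.8% higher and 2.84% lower. The median of the members was -1.01, and those that fell were Npm1, Nolc1, Nop56, Nop58, Rrp9, Dkc1, Utp20, Utp15, Heatr1, Wdr43, Wdr75, Rrp1b and Rrs1. That term assumes the same shift between the sets in all groups, whereas in wild type more members were lower in shallow myoblasts than in shallow myotubes. The muscle differentiation mean also differed between the wild-type myoblast sets. It was 8.87 and 8.99 log2 CPM in shallow libraries 3 and 4 and 6.66 and 6.67 in deep libraries 1 and 2. The term therefore holds more than depth, and its fit to dICR/dICR cells was not tested.

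Fbl and Npm1 had the largest positive values over all libraries. Fbl had 96.9 and 92.8 CPM in dICR/dICR myotubes, against 8.83 and 11.7 CPM in dICR/dICR myoblasts, 3.21 ± 1.5 on the log2 scale (adjusted p = 0.264, edgeR), and the sign turned with set as a term, at -0.49 ± 0.28 (adjusted p = 0.317). Npm1 had 1317 and 933 CPM in dICR/dICR myotubes, against 291 and 349.5 CPM in dICR/dICR myoblasts, 1.81 ± 1.42 over all libraries (adjusted p = 0.493, edgeR) and -1.74 ± 0.41 with set as a term (adjusted p = 0.0239). Both myotube libraries are deep and both myoblast libraries shallow, as in the wild-type gap described above for these genes.

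Rrp9 and Polr1b had the most negative values. Rrp9 had 42.9 and 45.1 CPM in dICR/dICR myotubes, against 92.3 and 110.1 CPM in dICR/dICR myoblasts, with -1.20 ± 0.34 over all libraries (adjusted p = 0.126, edgeR) and -1.57 ± 0.35 with set as a term (adjusted p = 0.0205). Polr1b had 59.1 and 54.1 CPM in dICR/dICR myotubes, against 108 and 126 CPM in dICR/dICR myoblasts, with -1.05 ± 0.31 over all libraries (adjusted p = 0.137, edgeR) and -0.89 ± 0.35 with set as a term (adjusted p = 0.144). Neither gene overlapped between the cell types. By overlap, 7 members were higher in both dICR/dICR myotube libraries, where 30% of all genes were, and 17 were lower, where 29.1% were. Rrp12, the gene that rose in wild type, had 73.6 and 129.5 CPM in dICR/dICR myotubes and 88.7 and 70.8 CPM in dICR/dICR myoblasts, whose ranges overlap.

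The difference between the differentiation changes of dICR/dICR and wild-type cells was tested in 1 model. None of the 36 members passed in edgeR, 4 had an unadjusted p under 0.05, DESeq2 called 0, and 0% of all genes were called by edgeR, with 1643 at an unadjusted p under 0.05, and 0.244% were called by DESeq2. Fbl (3.94 ± 1.74, adjusted p = 0.495) and Npm1 (3.22 ± 1.71, adjusted p = 0.511) had the largest positive differences in edgeR, and Polr1b (-1.07 ± 0.37, adjusted p = 0.495) and Rrp9 (-1.01 ± 0.41, adjusted p = 0.495) the most negative. With set as a term none passed either, where 0.0968% of all genes were called, and the median was -0.69. Rrp12, which was called in wild type and not in dICR/dICR, did not pass this test of the difference (-0.99 ± 0.44, adjusted p = 0.495, edgeR). Over all libraries and within the shallow set, the same wild-type myoblasts enter both the genotype effect in myoblasts and wild-type differentiation. There the higher values in dICR/dICR myoblasts and the lower ones in wild-type myotubes are not independent observations. The shallow genotype fit and the deep differentiation fit share no library, although the labels do not say whether their cells came from separate pups.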

How the data were processed

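Ribo-depleted RNA of 13 libraries in 4 groups was analysed. The deposited table holds raw read counts per gene for each library, and TopHat2, HTSeq and the mouse build mm9 are named in the submitters' processing notes; their versions, the annotation and the strand are items not given in the sources used here. Each column was matched to a sample by its name, and 0 columns of per-sample values were left unmatched. The authors' counts were used unchanged with edgeR 4.0.16 (R 4.3.3): genes passing filterByExpr (minimum count 10, minimum total 15), 16537 of 23366, TMM scaling, 4 group means fitted to all 13 libraries, quasi-likelihood tests of 5 contrasts and Benjamini-Hochberg adjustment over all genes at 0.05. Within-set fits used only the deep or the shallow libraries, divided at 20 M counts, and were refiltered.

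The 36 members, the other gene lists and their roles were chosen with earlier results of these data known, so no list count is independent support. Values in every library are printed for 10 fixed members (Ncl, Npm1, Fbl, Nop56, Dkc1, Bop1, Polr1a, Polr1b, Rrn3 and Ubtf) and for the called members with the 6 smallest p-values of a comparison; the 2 with the largest change in each direction, the 3 smallest p-values of other lists, and Myc are named. Members named beyond this rule were chosen after their values were seen. Alternatives were other scalings, no filter, DESeq2 1.42.0, a replicate block, depth set as a term, snoRNA rows left out and each library left out; fits of 2 groups, of 6 groups by set, and without the shallow wild-type pairs were added after seeing the data. The fits were tested on simulated counts. The lowest counts of a member in a library were 25 (Fbl) and 29 (Gar1), so counting error adds to the spread for these in shallow libraries, and the number of libraries limits the precision.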

Additional observations from a re-analysis of the deposited data

Results flagged for a closer look

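Of 72 member-by-group sets of 4 or 5 libraries, in wild-type myoblasts and wild-type myotubes, 3 held a library far from the rest, where chance alone gives about 1 in 20. That rate holds for libraries of the same kind, whereas both groups mix depth sets. In wild-type myoblasts, with 2 deep and 2 shallow libraries, a gap between the sets hides a single distant library. All 3 were in wild-type myotubes, and the library was wild-type myotube 1. Heatr1, a processome gene, had 241.62 CPM in wild-type myotube 1 and 138.16 to 161.25 CPM in the other 4. Rrp12 had 320.29 CPM there and 154.71 to 195.12 CPM in the other 4, and Rrn3, the polymerase I initiation factor gene, had 418.51 CPM there and 225.51 to 248.26 CPM in the other 4. Without that library the rise of Rrp12 in wild-type differentiation was 1.15 (adjusted p = 0.00507, edgeR).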

How the results depend on the processing

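Of the fold changes of single genes computed under alternatives, 701 kept their direction and side of the threshold, 15 reversed, 50 passed the threshold and 9 no longer did. Of the counts, 127 equalled or stayed near the main count and 30 moved, without a check of direction. The causes were not tested. In myoblasts, 0 members called between genotypes became 1 with DESeq2, 2 with set as a term, 23 within the shallow set, 22 with its 2 groups alone and 8 with the spread of all 13 libraries. In myotubes, 0 became 1 with DESeq2. In wild-type differentiation, 4 became 8 by library size alone (7 lower), 12 with set as a term, 10 within the deep set, 8 with its 2 groups alone, 13 with the spread of all 13 libraries, 11 in the shallow set with 2 groups alone, 3 in the shallow set with the spread of all 13 libraries, 12 without wild-type myoblasts 3 and 4 and 2 without wild-type myotubes 4 and 5. In dICR/dICR differentiation, 0 became 4 with DESeq2 and 13 with set as a term. Leaving out 1 library gave 3 to 5 calls in wild-type differentiation over all libraries, 0 to 11 within the deep set and 0 to 10 within the shallow set, 0 to 25 for myoblast genotype within the shallow set, and 0 in the other comparisons. In myoblasts Npm1 reversed to 0.92 with set as a term, 1.26 within the shallow set, 1.24 with 2 groups alone and 1.23 with the spread of all 13 libraries, Ncl to 0.28, 0.50, 0.49 and 0.48 under the same settings, and Utp18 to -0.23 without wild-type myoblasts 3 and 4. With set as a term, Fbl reversed to -0.49 and Npm1 to -1.74 in dICR/dICR differentiation, and Npm1 to -0.50 in the difference between the differentiation changes. Over 14 same-numbered pairs the correlation of deviations ran from -0.41 to 0.52, with 5 above 0.1. In a group of 2 libraries the deviations mirror each other, so pairs with a dICR/dICR library are not separate observations. Both same-numbered pairs of dICR/dICR myoblasts and myotubes gave -0.388 for this reason. Between wild-type myoblasts and myotubes the correlations went with the depth sets, so they cannot decide whether the replicate numbers pair the libraries. Myoblast 3 and myotube 3, of different sets, gave -0.41, and myoblast 4 and myotube 4, of the same set, gave 0.52. Myoblast 1 and myotube 2, of the same set but unlike number, gave 0.54. A replicate block gave 6 calls in wild-type differentiation and 0 in the other comparisons, and with the block Utp18 stood at -0.039 in myoblasts and Npm1 at -0.085 and Fbl at -0.16 in myotubes, each reversed. No within-set value exists for dICR/dICR differentiation, and depth limits the shallow libraries most.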
